A study of Mus musculus with 3 samples.

Results

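Glucose breakdown and the response to low oxygen were examined in MC3T3-E1 cells through a list of 40 genes, which holds the glycolytic enzymes, the transporters of glucose and lactate, the pyruvate dehydrogenase kinases, the oxygen sensors and well-known hypoxia-responsive genes. The members were taken by gene symbol from the table of all genes, and 38 of the 40 were listed there among 15287 genes. Adm, which encodes adrenomedullin, was not analysed here. The other symbol that was not matched, Ero1l, is given by RefSeq as an older name of Ero1a, and the values of Ero1a are reported beside the members. MC3T3-E1 is a line of wild-type preosteoblasts from mouse calvaria, and a line stands for a single origin of cells. RNA-seq was performed on 3 libraries, with 1 library per condition. Untreated cells gave the CTL library. Cells kept for 24 h with titanium particles, 10 μg on each square centimetre, gave the Ti library, and adding 5 μM selenomethionine to that same exposure gave the Ti+Se-Met library. Where 3 values of a gene stand without a name, they follow the order CTL, Ti, Ti+Se-Met. All 3 libraries are from cultured cells, and the gas conditions of each dish and the glucose left in the medium were not measured in these data.

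Glycolysis converts glucose to pyruvate in the cytosol, and lactate dehydrogenase then reduces pyruvate to lactate, which leaves the cell through monocarboxylate transporters. The pyruvate dehydrogenase kinases restrain the entry of pyruvate into mitochondria. In low oxygen the prolyl hydroxylases encoded by the Egln genes slow down, HIF-1α escapes degradation, and the HIF complex binds short DNA elements in many of these same genes. HIF-1α is controlled mainly at the protein level, so its mRNA is a poor guide to its activity. Osteoblasts are known as strongly glycolytic cells, and Vegfa from osteoblasts is known to promote the growth of blood vessels in bone.

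The values are FPKM, that is, fragments per kilobase of transcript, scaled to the total of the library, so levels of different genes are compared per length. Because each condition had 1 library, no difference had a replicate check, no test was possible and no p-value is given. Low FPKM values lie on steps worth 1 fragment, which put the depth at about 14300000 fragments in CTL, 14650000 under Ti and 10150000 under Ti+Se-Met. Folds of FPKM are given with a 95% exact conditional binomial interval on the estimated fragments, which covers counting error only and compares libraries, not conditions. The log2 ratio is the difference in log2(FPKM + 1), which is smaller than the log2 fold for low genes, and a gene is said to have risen or fallen where this ratio reached 2-fold. Only genes with at least 1 FPKM in at least 1 library were counted, which left 34 members and 11137 genes in all. Over all genes, FPKM added up to 448285 (CTL), 526017 (Ti) and 514568 (Ti+Se-Met), so that FPKM levels include this difference in totals. Of 10 preosteoblast markers, 8 passed 1 FPKM, and the 10 summed to 9179.74, 6153.01 and 7580.77 FPKM. The sum joins opposite directions, since Spp1 was at 1261.19, 3705.78 and 4659.49 FPKM, while Postn was at 2904.07, 419.52 and 446.61 FPKM, Col1a2 at 2688.49, 998.91 and 1256.6 FPKM, and Col1a1 at 1333.19, 354.2 and 481.63 FPKM. Sp7 and Ibsp, markers of later osteoblasts, were below 1 FPKM in every library. Of 8 macrophage and blood markers only Cd14 passed 1 FPKM, at 5.7, 16.56 and 14.81 FPKM, and the 4 listed of that list summed to between 5.78 and 17.49 FPKM. The listed markers summed to at most 0.24 FPKM for endothelial cells, 0.88 for adipocytes and 1.16 for muscle, and to between 25.12 and 40.01 FPKM for chondrocytes, nearly all from Sox9. The part of other cells in the results was not tested. In bulk samples, fewer cells of a type and less RNA per cell cannot be told apart.

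The core of the hypoxia response element, to which the HIF complex binds, is ACGTG or GCGTG. RefSeq promoters on the build GRCm38.p6 were found for 35 of the 38 listed members, and the 250 bases before the most upstream start of each gene were searched on both strands. The sequences below were chosen from the members that held a match, so Vegfa is not among them, and capitals mark every match to either motif. They are written 5′ to 3′ along the gene.
Slc2a1, chr4:119108495-119108744, plus strand: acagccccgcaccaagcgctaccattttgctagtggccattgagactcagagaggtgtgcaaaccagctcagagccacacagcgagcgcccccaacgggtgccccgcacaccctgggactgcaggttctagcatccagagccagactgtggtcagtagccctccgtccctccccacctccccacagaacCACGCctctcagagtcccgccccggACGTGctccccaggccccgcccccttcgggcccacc
Hk2, chr6:82774455-82774704, minus strand: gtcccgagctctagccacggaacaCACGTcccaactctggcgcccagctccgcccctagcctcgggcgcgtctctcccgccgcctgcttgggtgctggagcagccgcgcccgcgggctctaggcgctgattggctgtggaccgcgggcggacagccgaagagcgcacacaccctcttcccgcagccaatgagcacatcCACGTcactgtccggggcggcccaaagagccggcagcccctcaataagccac
Gapdh, chr6:125165774-125166023, minus strand: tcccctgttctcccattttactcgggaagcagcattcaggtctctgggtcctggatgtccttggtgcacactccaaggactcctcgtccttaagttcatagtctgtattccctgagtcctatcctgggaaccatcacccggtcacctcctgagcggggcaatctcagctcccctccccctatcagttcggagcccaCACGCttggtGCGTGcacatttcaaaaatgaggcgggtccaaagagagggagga
Pgk1, chrX:106186850-106187099, plus strand: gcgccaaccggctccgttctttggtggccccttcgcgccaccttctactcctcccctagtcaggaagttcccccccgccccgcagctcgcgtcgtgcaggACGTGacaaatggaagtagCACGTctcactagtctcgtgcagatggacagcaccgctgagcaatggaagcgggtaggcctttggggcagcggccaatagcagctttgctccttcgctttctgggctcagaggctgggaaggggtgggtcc
Ldha, chr7:46845554-46845803, plus strand: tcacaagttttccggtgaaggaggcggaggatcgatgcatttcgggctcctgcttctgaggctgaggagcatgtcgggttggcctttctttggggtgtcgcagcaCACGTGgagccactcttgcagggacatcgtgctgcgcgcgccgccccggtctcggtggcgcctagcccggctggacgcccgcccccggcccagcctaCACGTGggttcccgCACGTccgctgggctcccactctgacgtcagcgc
Higd1a, chr9:121857797-121858046, minus strand: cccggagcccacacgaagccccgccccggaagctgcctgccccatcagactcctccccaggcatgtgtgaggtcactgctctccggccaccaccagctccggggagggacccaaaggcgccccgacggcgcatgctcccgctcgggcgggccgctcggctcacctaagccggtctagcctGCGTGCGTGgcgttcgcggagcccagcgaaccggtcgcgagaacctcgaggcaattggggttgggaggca
In Hk2, both matches read ACGTG on the opposite strand, and the nearer one begins 52 bases before the start. The Ldha promoter held 5 matches that overlap in part, since each CACGTG reads as ACGTG on both strands. In Higd1a, a pair of GCGTG matches share bases.

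At least 1 of the motifs was found in 28 of the 35 members (80%), against 58.4% of the 8976 promoters of genes that passed 1 FPKM and 38.6% of all 27025 promoters. ACGTG was present in 17 members (48.6%), against 22.5% of the promoters of genes that passed 1 FPKM. For GCGTG the shares were closer, with 18 members (51.4%) against 46.9% of those promoters. Many members were put on the list because they are known HIF targets, so these shares are a description of the list. Members with a match stood on both sides of CTL. Ldhb and Pdk1 each held a GCGTG and were lower in both libraries with particles, whereas Tpi1, Pkm and Gpi1 held no match in this window and were higher in FPKM, and Vegfa, also higher, held none before its most upstream start. No match says only that these letters are absent from the 250 bases searched.

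The members spanned a wide range of levels, as the plot of FPKM by gene shows. Gapdh was the 20th gene of the whole table in CTL by FPKM, the 12th in Ti and the 14th in Ti+Se-Met. Of the other members in CTL, Pkm, Aldoa, Pgam1, Ldha, Tpi1 and Eno1 followed, between 617.63 and 431.17 FPKM. Summed from hexokinase to lactate dehydrogenase, 17 enzyme genes made up 1.17% of all FPKM in CTL, 1.46% under Ti and 1.38% under Ti+Se-Met, a share that does not depend on scaling between libraries. Several forms of these proteins were at or near 0. Slc2a3, the neuronal glucose transporter, and Aldoc, the brain aldolase, were listed at 0 in both CTL and Ti+Se-Met and stayed at 0.05 FPKM or less in Ti. Slc16a3, the lactate exporter MCT4, was at 0.07, 0.24 and 0.13 FPKM, and Egln3 was at 0.27, 0.21 and 0.41 FPKM. These 4 genes are the listed members that did not reach 1 FPKM, and no difference between libraries was detectable in them at this depth. Eno2, the neuronal enolase, made up at most 0.416% of the summed FPKM of Eno1 and Eno2. Eno3, which is not a member and is not in that sum, was at 37.66, 30.43 and 24.27 FPKM.

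**Figure D1:**
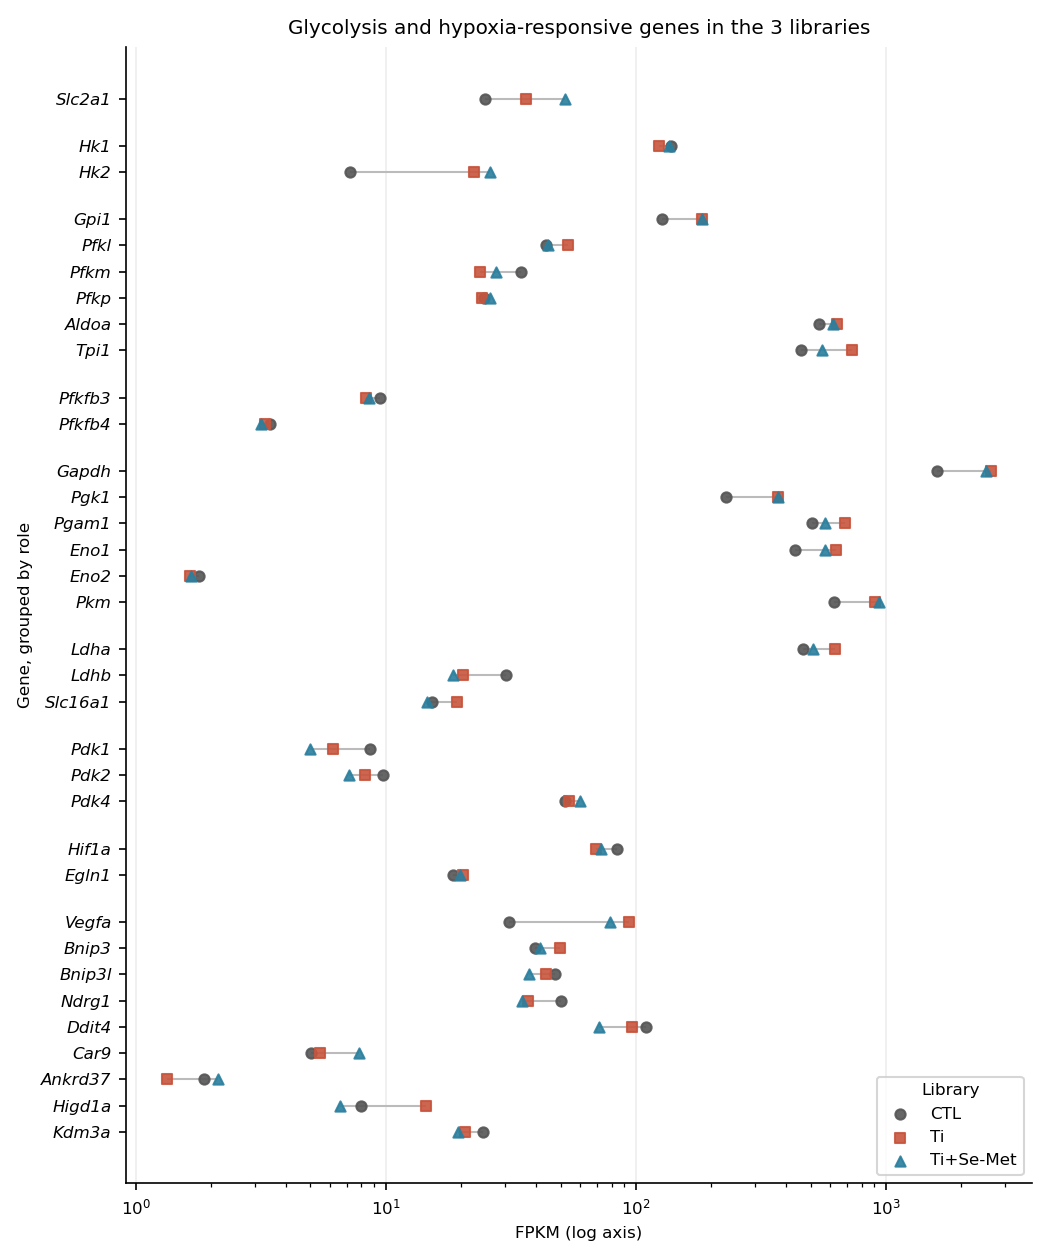
FPKM of the 34 members that reached 1 FPKM, on a log axis, with 1 point per library (CTL circles, Ti squares, Ti+Se-Met triangles) and genes grouped by role. Hk2 and Vegfa show the widest gaps between CTL and the Ti-exposed libraries, and in Higd1a the Ti value stands above both other libraries.

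In the Ti library, 2 of the 34 members, Hk2 and Vegfa, rose by 2-fold or more against CTL, and 0 fell. Over all 11137 genes, 3.63% rose and 3.64% fell by as much. At 1.5-fold, 6 members were higher (17.6%) against 15.5% of all genes, namely Hk2, Vegfa, Higd1a, Gapdh, Pgk1 and Tpi1. None of the 34 was 1.5-fold lower in FPKM as deposited, against 11.3% of all genes. Ldhb (log2 ratio -0.55) and Pfkm (-0.53) lay just inside that limit. With every library rescaled to the same sum (TPM), Ldhb (-0.77), Pfkm (-0.75), Ndrg1 (-0.66) and Pdk1 (-0.64) would be 1.5-fold lower. The absence of lower members thus depended on the scaling, and the share of all genes with TPM is not given here. The median log2 ratio of the members was 0.11, beside 0.08 for all genes, so the list as a whole stood close to the background. The roles within it differed. The 14 enzymes from hexokinase to pyruvate kinase had a median of 0.49, with 10 above and 4 below the median of all genes. The 11 oxygen-sensing and hypoxia-responsive genes had a median of -0.12, with 5 above and 6 below it.

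In the Ti+Se-Met library, Slc2a1, Hk2 and Vegfa rose by 2-fold or more against CTL and 0 members fell, where 2.64% of all genes rose and 3.32% fell. At 1.5-fold, 6 members were higher (17.6%, against 10.4% of all genes), and 3 were lower (8.82%, against 11.8%), the last being Ldhb, Pdk1 and Ddit4. The median log2 ratio was 0.07, beside 0.01 for all genes, with 0.24 for the 14 enzymes and -0.21 for the 11 oxygen-sensing and hypoxia-responsive genes. Both comparisons share the CTL library, so they are not independent of each other. Which median lay above 0 depended on the scaling, since rescaling every library to the same sum (TPM) moved the median of all genes in Ti against CTL from 0.08 to -0.13 and that of the members from 0.11 to -0.09. The median of the 14 enzymes became 0.26 in Ti and 0.04 in Ti+Se-Met with TPM, and 0.35 and 0.17 with upper-quartile scaling.

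**Figure D2:**
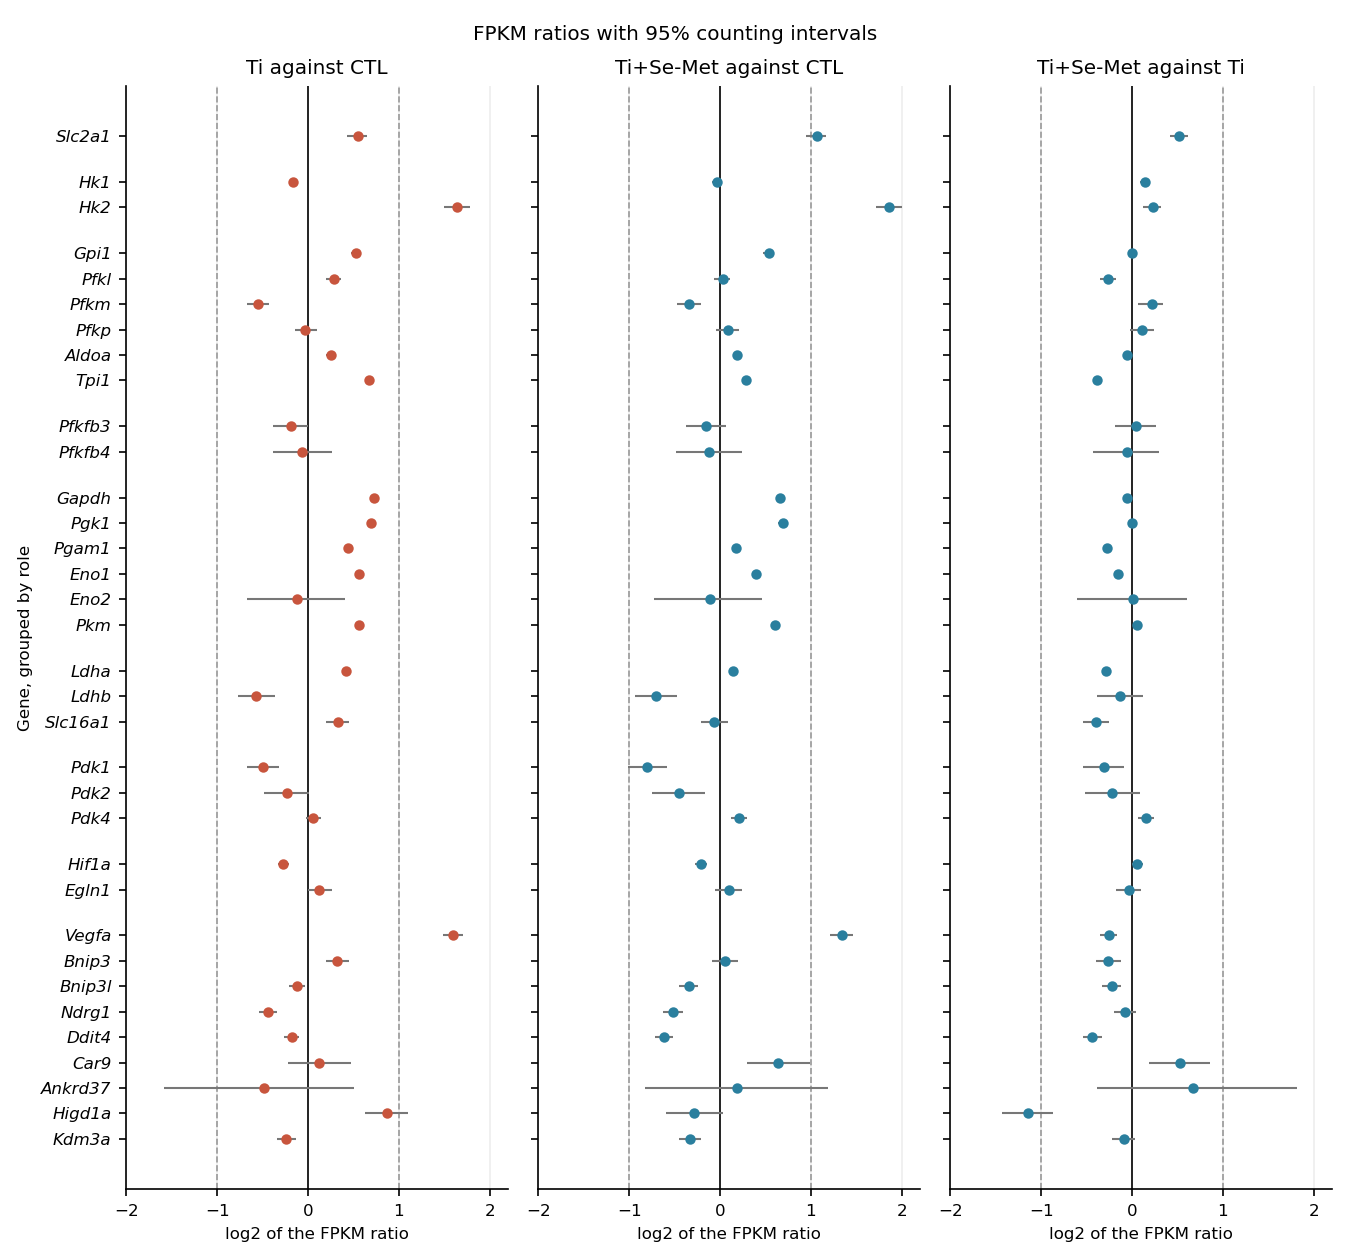
The log2 of the FPKM ratio of each of the 34 members in the 3 comparisons, with bars for the 95% counting interval and dashed lines at 2-fold. Points of Hk2 and Vegfa lie beyond the upper line in both comparisons with CTL, and Higd1a lies beyond the lower line in Ti+Se-Met against Ti.

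GLUT1, the product of Slc2a1, is the basal glucose transporter of many cells, and Slc2a1 made up at least 99.9% of the FPKM of the 2 transporters on the list. Slc2a1 was at 25.05 FPKM in CTL, 36.46 under Ti and 52.24 under Ti+Se-Met. The 3 values lay in 3 steps, with the Ti+Se-Met library the highest. The fold was 1.46 in Ti against CTL (interval 1.35 to 1.57), and 2.09 in Ti+Se-Met against CTL (interval 1.93 to 2.25). The 2-fold call of Slc2a1 is marginal, since its log2 ratio of 1.03 became 0.84 with TPM and 0.97 with upper-quartile scaling.

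Hexokinase traps glucose in the cell as glucose 6-phosphate. Hk2, the inducible hexokinase, was at 7.23 FPKM in CTL, 22.46 under Ti and 26.2 under Ti+Se-Met, so both libraries with particles stood well above CTL. Its fold was 3.11 in Ti (interval 2.83 to 3.43) and 3.62 in Ti+Se-Met (interval 3.29 to 4.01) against CTL. Hk1, the constitutive hexokinase, was at 138.58, 123.43 and 135.39 FPKM, with a fold of 0.891 under Ti (interval 0.862 to 0.92). The sum of the 2 genes was therefore 145.81 FPKM in CTL and 145.89 in Ti. In FPKM, Hk2 was higher under Ti by about as much as Hk1 was lower, and Hk2 supplied 4.96% of the hexokinase level in CTL, 15.4% under Ti and 16.2% under Ti+Se-Met. These shares are taken within a library, so that they do not depend on scaling.

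Phosphofructokinase, the committed step of glycolysis, differed in makeup between the libraries more than in its sum. Its 3 genes summed to 103.42 FPKM in CTL, 101.59 under Ti and 98.21 under Ti+Se-Met. The share of Pfkl, the liver-type subunit, was 42.4%, 52.7% and 45.3%, and that of Pfkm, the muscle-type subunit, was 33.7%, 23.5% and 28.1%. In FPKM, Pfkm was at 34.87 in CTL, 23.83 under Ti and 27.57 under Ti+Se-Met, with a fold of 0.683 in Ti (interval 0.628 to 0.744). Pfkl was at 43.85, 53.52 and 44.52 FPKM, so that its Ti value stood alone. Pfkp, the platelet-type subunit, stayed between 24.24 and 26.12 FPKM. Pfkfb3 and Pfkfb4, which make fructose 2,6-bisphosphate, the activator of phosphofructokinase, were between 8.34 and 9.52 and between 3.16 and 3.44 FPKM. The intervals of their folds included equal levels in each comparison, that of Pfkfb3 in Ti against CTL (0.763 to 1) only at its bound.

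**Figure D3:**
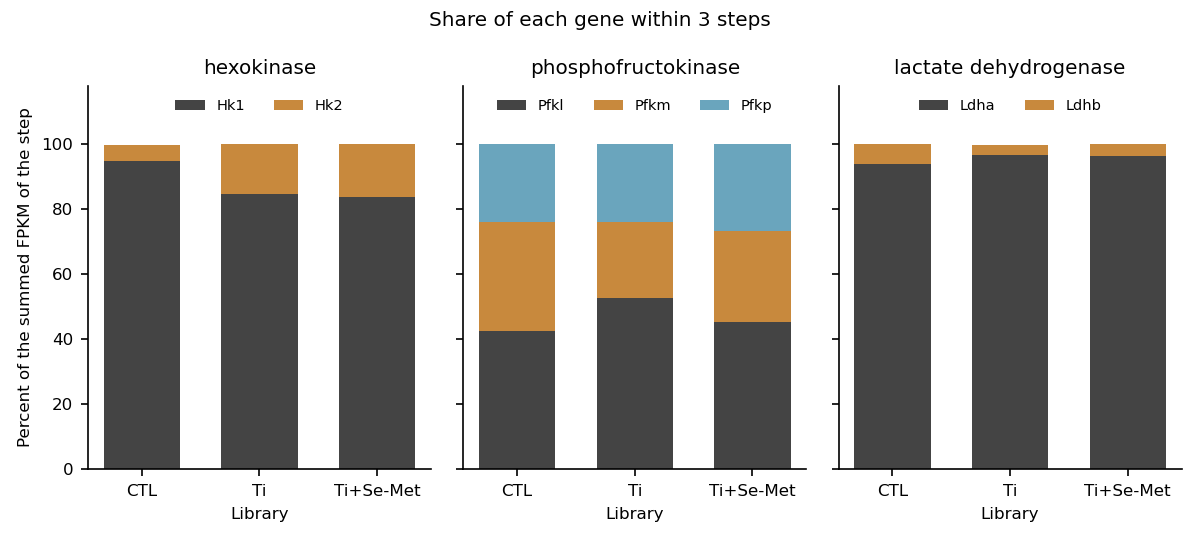
Share of each gene in the summed FPKM of hexokinase, phosphofructokinase and lactate dehydrogenase, as stacked bars with 1 bar per library. The Hk2 part is 4.96% in CTL and at least 15.4% in the other 2 libraries, and the Ldhb part is 6.11% in CTL and at most 3.51% in the others.

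Further down the pathway, each step from glucose-6-phosphate isomerase to lactate dehydrogenase, other than phosphofructokinase, was at a higher FPKM under Ti than in CTL. Aldolase was, however, level with CTL as a share of all FPKM. Scaled to Gapdh, all of these steps other than that of Gapdh would lie below CTL. Gpi1, glucose-6-phosphate isomerase, was at 127.06 FPKM in CTL, 183.42 under Ti and 183.66 under Ti+Se-Met. Aldoa, the main aldolase, was at 538.6, 638.27 and 614.32 FPKM. Among the steps that were higher under Ti, aldolase had the lowest ratio of Ti to CTL, at 1.19. Tpi1, triose-phosphate isomerase, was at 458.2, 728.71 and 557.07 FPKM. Tpi1 reached a fold of 1.59 over CTL under Ti (interval 1.55 to 1.63), while the Ti+Se-Met library stood nearer to CTL than to Ti.

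Gapdh, which encodes the enzyme that oxidises glyceraldehyde 3-phosphate, was at 1594.46 FPKM in CTL, 2628.23 under Ti and 2523.18 under Ti+Se-Met. Pgk1, the first ATP-yielding enzyme of the pathway, was at 228.51, 370.85 and 370.09 FPKM. Both genes were alike in the 2 libraries with particles and lower in CTL, and Pgk1 stayed at 0.143, 0.141 and 0.147 of Gapdh. Pgam1, phosphoglycerate mutase, was at 504.67, 688.87 and 569.15 FPKM, and Eno1, the ubiquitous enolase, at 431.17, 634.18 and 571.1 FPKM. Pkm, the pyruvate kinase of most tissues, was at 617.63, 907.31 and 940.42 FPKM, with folds against CTL of 1.47 in Ti (interval 1.44 to 1.5) and 1.52 in Ti+Se-Met (interval 1.49 to 1.55). Reads of Gapdh, Eno1, Ldha and other members of this chain can be shared with processed copies in the genome. Eno1b was listed at 0 in CTL and Ti+Se-Met and at 0.28 FPKM in Ti.

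The steps differed in their ratio to CTL. Under Ti, the ratio of the summed FPKM was 1 for hexokinase and 0.982 for phosphofructokinase, while it was 1.65 for glyceraldehyde-3-phosphate dehydrogenase, 1.62 for phosphoglycerate kinase and 1.59 for triose-phosphate isomerase. As a share of all FPKM, which takes out the difference in sums, the log2 ratio in Ti was -0.23 for hexokinase, -0.26 for phosphofructokinase and 0.01 for aldolase, and it lay between 0.15 and 0.49 for the other steps from glucose-6-phosphate isomerase to lactate dehydrogenase. Under Ti+Se-Met, the shares of hexokinase (-0.05), phosphoglycerate mutase (-0.03), aldolase (-0.01) and lactate dehydrogenase (-0.10) lay below CTL although their FPKM lay above it.

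**Figure D4:**
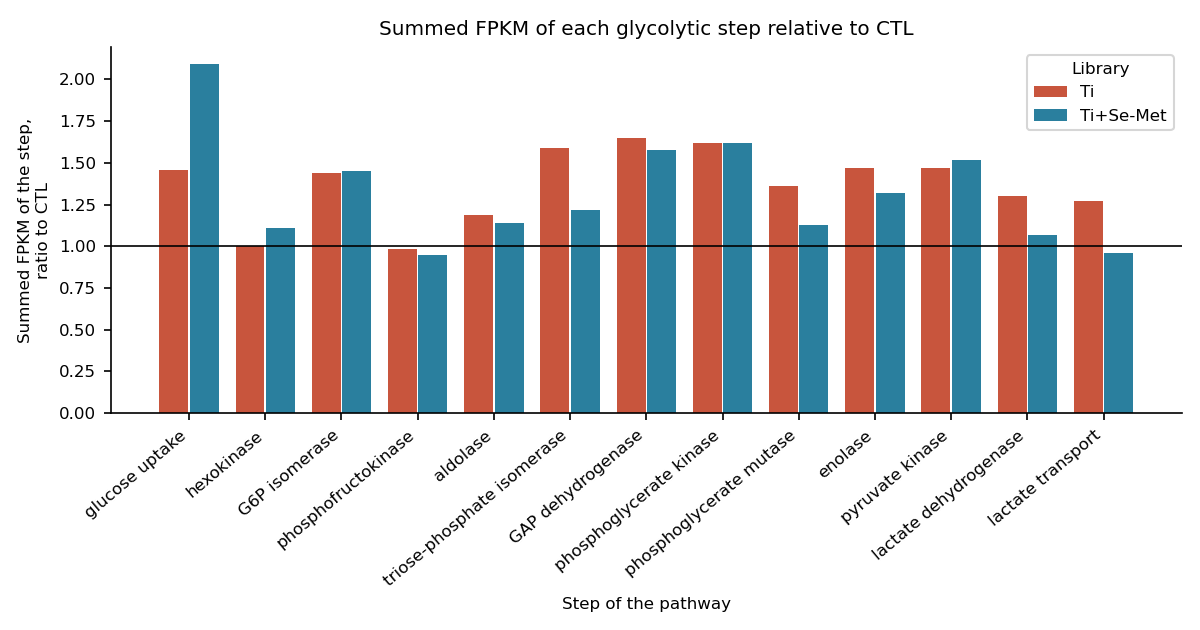
Ratio of the summed FPKM of each step of glycolysis, with glucose uptake and lactate transport, in Ti and Ti+Se-Met to that in CTL, with a line at 1 (G6P, glucose 6-phosphate. GAP, glyceraldehyde 3-phosphate). Hexokinase and phosphofructokinase stay within 0.95 and 1.11, and glyceraldehyde-3-phosphate dehydrogenase and phosphoglycerate kinase lie between 1.58 and 1.65 in both libraries.

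At the end of the pathway, the 2 lactate dehydrogenase genes differed in direction. Ldha, whose subunit favours the making of lactate, was at 466.7 FPKM in CTL, 625.24 under Ti and 513.23 under Ti+Se-Met. Ldhb, whose subunit favours the use of lactate, was at 30.35, 20.44 and 18.66 FPKM. The fold of Ldhb was 0.673 in Ti (interval 0.586 to 0.775) and 0.615 in Ti+Se-Met (interval 0.523 to 0.723) against CTL, and its values in the libraries with particles were close to each other. Ldha to Ldhb was 15.4 in CTL, 30.6 under Ti and 27.5 under Ti+Se-Met. Slc16a1, the lactate transporter MCT1, was at 15.34, 19.27 and 14.65 FPKM, highest in Ti.

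Among the kinases that inhibit pyruvate dehydrogenase, Pdk1, a classical HIF target, was at 8.69 FPKM in CTL, 6.18 under Ti and 4.99 under Ti+Se-Met. Its fold in Ti+Se-Met against CTL was 0.574 (interval 0.494 to 0.665). Pdk2 was lower in the same order, at 9.77, 8.3 and 7.14 FPKM. Pdk4, a kinase known for its induction in fasting, was the most abundant of the 3 and was at 51.96, 54.17 and 60.08 FPKM. The direction in Pdk1 was thus opposite to that of Gapdh, Pgk1 and Ldha, which are also known HIF targets.

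Among the oxygen sensors, Hif1a was at 83.84 FPKM in CTL, 69.5 under Ti and 72.44 under Ti+Se-Met, with a fold of 0.829 in Ti against CTL (interval 0.797 to 0.862). Egln1, which encodes the main prolyl hydroxylase of HIF-1α, stayed between 18.62 and 20.38 FPKM. Epas1, which encodes HIF-2α, was at 0.06 FPKM or less. Of 12 genes of the HIF machinery that passed 1 FPKM, outside the members, 0 rose or fell by 2-fold in any comparison.

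The hypoxia-responsive members did not share a direction. Vegfa, the endothelial growth factor, was at 31.22 FPKM in CTL, 94.37 under Ti and 79.08 under Ti+Se-Met. Both values with particles were far above CTL, with a fold of 3.02 in Ti (interval 2.79 to 3.27) and 2.53 in Ti+Se-Met (interval 2.32 to 2.76). Of the other 8 members of this group, only Higd1a was 1.5-fold higher on the log2(FPKM + 1) scale in a library with particles. Bnip3, a mitophagy receptor, was at 39.65, 49.6 and 41.41 FPKM, and the related Bnip3l was at 47.37, 43.59 and 37.34 FPKM. Ndrg1, a stress-responsive gene that hypoxia induces strongly in many cells, was at 50.43, 37.14 and 35.21 FPKM. Its fold was 0.736 in Ti (interval 0.688 to 0.788). Ddit4, an inhibitor of mTORC1 also known as REDD1, was at 109.72, 96.87 and 71.55 FPKM, lowest with selenomethionine. Kdm3a, a histone demethylase, was at 24.47, 20.76 and 19.45 FPKM.

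Car9, a carbonic anhydrase that serves as a marker of hypoxic cells, was low, at 5.02 FPKM in CTL, 5.45 under Ti and 7.85 under Ti+Se-Met. It rested on an estimated 134 to 150 fragments per library, and only the Ti+Se-Met value stood clear of the others, with a fold of 1.56 against CTL (interval 1.23 to 1.99). Ankrd37 rested on at most 21 fragments per library, at 1.87, 1.34 and 2.13 FPKM, so no difference was detectable in it. Ero1a, a disulfide oxidase of the endoplasmic reticulum, was at 21.13, 24.91 and 22.39 FPKM. Of 27 other known HIF targets that passed 1 FPKM, Mif rose in Ti against CTL, Bhlhe40 rose in Ti+Se-Met against CTL and 0 fell, with medians of 0.11 and 0.08. Mif, a cytokine, was at 508.79, 1068.64 and 937.9 FPKM. Bhlhe40, a transcriptional repressor, was at 21.77, 42.44 and 49.48 FPKM.

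When Ti+Se-Met was compared with Ti, Higd1a was the 1 member that fell by 2-fold, and 0 rose. Over all genes 0.162% rose and 0.0629% fell. At 1.5-fold the members gave the same counts, against 0.844% higher and 1.29% lower over all genes, and the median log2 ratio was -0.06 for the members and for all genes. Higd1a, a small protein of the inner mitochondrial membrane, was at 8 FPKM in CTL, 14.53 under Ti and 6.58 under Ti+Se-Met, which rested on about 238, 443 and 139 fragments. The Ti value stood alone, at 1.82 times CTL (interval 1.55 to 2.14). The fold in Ti+Se-Met against Ti was 0.453 (interval 0.372 to 0.549), and its log2 ratio of -1.03 became -0.97 with median-of-ratios or upper-quartile scaling, just inside 2-fold. Next to it in rank were Ddit4 at -0.43 and Tpi1 at -0.39.

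Several other members were lower in Ti+Se-Met than in Ti by less than 1.5-fold. The fold was 0.764 for Tpi1 (interval 0.744 to 0.785), 0.821 for Ldha (interval 0.799 to 0.844), 0.826 for Pgam1 (interval 0.805 to 0.847), 0.76 for Slc16a1 (interval 0.69 to 0.838) and 0.739 for Ddit4 (interval 0.688 to 0.793). By contrast Pgk1 (fold 0.998), Gpi1 (fold 1) and Gapdh (fold 0.96) were at nearly the same level in both libraries. Slc2a1 was the highest member in this comparison, with a fold of 1.43 (interval 1.34 to 1.53). Over the 34 members, 13 were highest in CTL (38.2%, against 40.1% of all genes) and 13 under Ti (38.2%, against 41%). The other 8 were highest under Ti+Se-Met (23.5%, against 18.9%). Txnip, which encodes an arrestin that removes GLUT1 from the cell surface and that glucose is known to induce, was at 19.56, 42.51 and 0.96 FPKM. Arrdc4, a related glucose-induced gene, was at 1.77, 4.23 and 1.39 FPKM, and Mlxip, which encodes their activator MondoA, was at 8.39, 6.87 and 6.32 FPKM.

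Gapdh is also widely used as a reference gene to which other genes are scaled. The study lists primers for it, spelled GADPH there, for its real-time PCR. Its antibodies for immunoblots included those to GAPDH and to β-tubulin. In these libraries the log2 fold of Gapdh was 0.72 in Ti and 0.66 in Ti+Se-Met against CTL. With each library scaled to the same Gapdh level, 20.3% of all genes would be 2-fold lower and 0.521% higher in Ti than in CTL, and the members that would pass 2-fold were Pfkm, Ldhb, Pdk1 and Ndrg1, all lower. In Ti+Se-Met against CTL, 18.7% of all genes would be 2-fold lower, and among the members Hk2 alone would be higher, while Ldhb, Pdk1, Pdk2, Ndrg1 and Ddit4 would be lower. Hk2 then had a log2 ratio of 0.85 in Ti and Vegfa 0.86. Of the 34 members, 30 lay below Gapdh in their ratio of Ti to CTL, against 87.5% of all genes. Between Ti+Se-Met and Ti, where the log2 fold of Gapdh was -0.06, scaling to Gapdh moved the median of all genes only from -0.06 to -0.01.

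Other reference genes differed among themselves. Tubb5, a β-tubulin, was at 263.17 FPKM in CTL, 420.96 under Ti and 553.98 under Ti+Se-Met, and its log2 ratio to CTL of 1.07 under Ti+Se-Met was the highest among the reference genes given here. Actb was at 860.95, 725.77 and 1121.05 FPKM, lowest in Ti and highest in Ti+Se-Met. Rplp0, a ribosomal protein gene, was at 1833.52, 3327.66 and 3034.76 FPKM, and its log2 ratio under Ti was 0.86. The log2 ratios of Tbp (0.14 and 0.08), Ywhaz (0.07 and 0.18) and B2m (-0.10 and -0.03) in Ti and Ti+Se-Met against CTL were nearer to the median of all genes. Hprt had 0.33 and 0.23, Ppia 0.32 and 0.38, and Gusb 0.48 and 0.21.

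**Figure D5:**
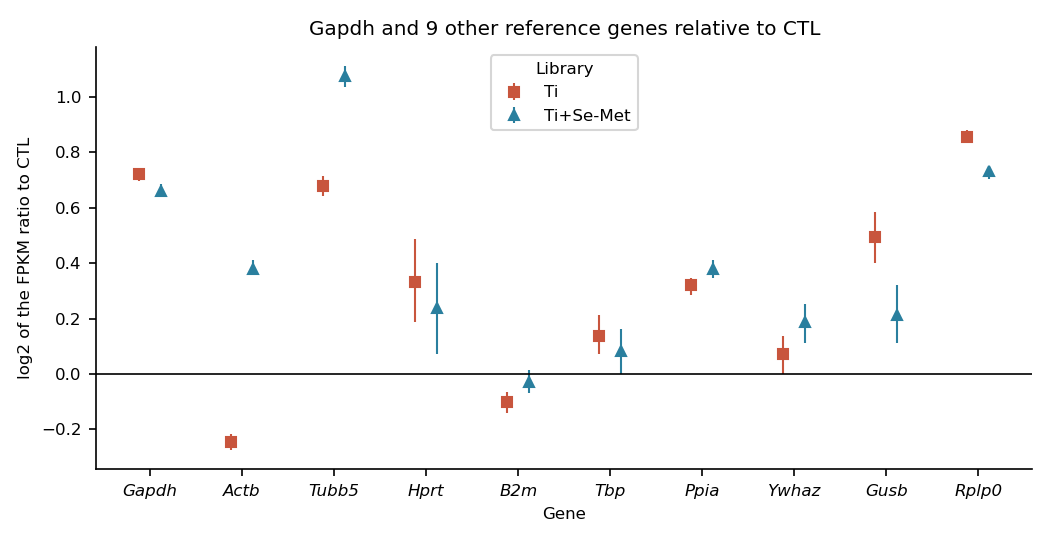
The log2 of the FPKM ratio to CTL of Gapdh and 9 other reference genes in Ti (squares) and Ti+Se-Met (triangles), with bars for the 95% counting interval. Gapdh, Tubb5 and Rplp0 lie far above 0 in both libraries, while B2m, Tbp and Ywhaz lie nearer to it.

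Genes of the neighbouring pathways outside the members were described in the same way. In the pentose phosphate pathway, which branches off after hexokinase, 9 genes had a median log2 ratio to CTL of 0.36 under Ti and 0.30 under Ti+Se-Met, with 0 genes past 2-fold. Nearest to it was Taldo1, transaldolase, at 86.01, 172.03 and 171.02 FPKM (log2 ratios 0.99 and 0.98). In the tricarboxylic acid cycle, 16 genes had a median of 0.31 and 0.24, with 13 and 12 of them above 0 and 0 past 2-fold. Of all 11137 genes, 6159 and 5682 lay above 0, and the 10 reference genes had medians of 0.32 and 0.30. These ratios are of FPKM as deposited, and scaling as TPM lowers ratios to CTL in both libraries. The 11 genes of pyruvate entry into mitochondria had a median of 0.04 and -0.05. In this list only Pdp1, the phosphatase that reactivates pyruvate dehydrogenase, passed 2-fold, at 24.54, 11.65 and 12.45 FPKM, with a fold of 0.475 in Ti against CTL (interval 0.42 to 0.535). Of 12 further glycolytic forms and glucose-handling genes and 11 genes of glycogen and gluconeogenesis, 0 passed 2-fold in any comparison. The 26 genes that the deposited annotation places in glycolysis and gluconeogenesis and that are not members had medians of 0.03 and 0.00, with 0 past 2-fold.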

How the data were processed

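The authors discarded reads of poor quality or with adapter sequence, mapped what was left to the mouse genome using HISAT2, and obtained gene counts from HTSeq. The submitters' processing notes name SAMtools and StringTie as well, and the build mm9. The values the authors deposited are FPKM of each gene with 2 decimals, and how they made them from counts is not given in the sources used here. Each of the 3 value columns was matched to its library by name, and 0 were left unmatched. Without counts and replicates, no count model and no test was used.

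Python 3.11.15 was used with numpy 2.4.6, with pandas 2.3.3 and with scipy 1.17.1. Differences in log2(FPKM + 1) were taken over genes with at least 1 FPKM in at least 1 library. Depth was estimated from 453 genes with 1 transcript of 350 to 1000 bases (GENCODE M21 lengths less 150 bases), as the number of fragments that put most low values within 0.1 fragment of a whole number. This held for 65.0% of 117 values in CTL, 54.8% of 93 in Ti and 53.4% of 88 in Ti+Se-Met, against 20% by chance. Fragments of a gene used the median length of its transcripts, and all 38 listed members had a length. Precision was lowest for Ti+Se-Met. There, 1 fragment of a transcript of 1 kb was worth 0.0985 FPKM, against 0.0699 in CTL. The steps were tested on simulated data, where 100% of 200 genes changed 4-fold were recovered in Ti against CTL over 10863 genes. The simulation held counting noise only, and the low genes of CTL were not among those changed. Smaller folds were not simulated, so their recovery was not tested.

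The members, lists and tests were chosen with earlier results of these data known. Named genes are all members, genes of the pathway lists with a mean of at least 5 FPKM that passed 2-fold, the reference genes, and Txnip, Arrdc4 and Mlxip, though not every gene under this rule is reported here. Cd14, Epas1, Ero1a, Eno1b, Eno3, Taldo1, Sox9, Spp1, Postn, Col1a1, Col1a2, Sp7 and Ibsp fall outside this rule and were chosen after their values were seen. Promoters came from RefSeq (GRCm38.p6), and no coordinates of mm9 are given. As alternatives, the pseudocount was set to 0.1 or 5, the filter was dropped or raised to a mean of 5 FPKM, the threshold was set at 1.5-fold or 4-fold, and libraries were scaled as TPM, by median of ratios, by upper quartile or to Gapdh.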

Additional observations from a re-analysis of the deposited data

How the results depend on the processing

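No paired analysis was possible because the conditions were measured in 1 library each, which also kept any library from being left out. The number of members past 2-fold was 2 for Ti against CTL, 3 when Ti+Se-Met was set against CTL and 1 when it was set against Ti. At 1.5-fold the first 2 became 6 and 9, and at 4-fold all 3 became 0, by construction of the threshold. Scaled to Gapdh they became 4, 6 and 0. In Ti+Se-Met against Ti the only call, Higd1a, was lost (0 members) with a pseudocount of 5, median of ratios or upper quartile. The median log2 ratio of the members in Ti against CTL, 0.11, was 0.24 for genes with a mean of at least 5 FPKM, -0.09 with TPM, -0.01 with upper quartile and -0.53 scaled to Gapdh. In Ti+Se-Met against CTL, 0.07 became -0.12 with TPM and -0.55 scaled to Gapdh. A median was taken as moved where it shifted by more than the median half-width of the members' counting intervals. The shifts under scaling follow from the scale factors by construction, and the cause of the shift with a mean of at least 5 FPKM was not tested. Of the 34 members, the number that changed sign in Ti against CTL was 3 with TPM, 3 with upper quartile and 16 scaled to Gapdh. Against CTL under Ti+Se-Met it was 8, 2 and 15. For Ti+Se-Met over Ti it was 2 with TPM, 1 with a pseudocount of 5, and 6 each with median of ratios, upper quartile and Gapdh. No member past 2-fold changed sign under any alternative. Depth limits Ankrd37, Eno2, Car9 and the 4 members below 1 FPKM.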

Other observations

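Among 65 genes that the deposited annotation places in the HIF-1 signaling pathway and that are not members, 3 rose and 2 fell in Ti against CTL. Over all 11137 genes, 3.63% rose and 3.64% fell, so these counts were close to the background. The genes of the pathway that rose or fell are named here after their values were seen. Timp1, an inhibitor of metalloproteinases, was at 49.72 FPKM in CTL, 202.48 under Ti and 173.09 under Ti+Se-Met. Hmox1, heme oxygenase 1, was at 54.84, 203.87 and 96.48 FPKM, and Eif4ebp1, a repressor of translation that mTORC1 inactivates, at 60.12, 195.07 and 160.58 FPKM. The genes that fell were Igf1, insulin-like growth factor 1, at 58.15, 18.79 and 16.71 FPKM, and Pik3r1, a regulatory subunit of phosphoinositide 3-kinase, at 98.69, 45.8 and 36.79 FPKM. The median log2 ratio of the 65 genes was -0.01 in Ti and 0.03 in Ti+Se-Met against CTL.

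Within a library, Vegfa stood at 0.372 of Hif1a in CTL, 1.36 under Ti and 1.09 under Ti+Se-Met. Bnip3 stood at 0.837 of Bnip3l in CTL, 1.14 under Ti and 1.11 under Ti+Se-Met. Neither ratio depends on scaling between libraries. In the Ti+Se-Met library, Slc2a1 was the highest and Txnip the lowest of the 3 libraries. Each of these values rests on 1 culture, and whether they are linked was not tested.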
